A study of Mus musculus with 9 samples.

Results

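The 53 genes described here build, fold, check and ship the proteins that a cell secretes, and they were chosen by name: chaperones, disulfide isomerases, degradation factors, stress sensors with their transcription factors, the translocation channel with signal peptidase, oligosaccharyltransferase, and vesicle export. Of these 53 genes, 52 had a row under their symbol in the deposited table of 37975 rows, where 15082 rows reached 1 FPKM in at least 1 library, all 52 among them. FPKM is the fragment number per length of transcript and per mapped fragments of the library, so levels of different genes can be set side by side. Mia3, a cargo receptor for collagen at endoplasmic reticulum (ER) exit sites, has no row under its symbol. Its Ensembl identifier stands on a row of an unplaced contig listed at 0 in all 9 libraries, and it is not described further.

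The study followed mouse embryonic stem cells (ESC) turned into extraembryonic endoderm (XEN) cells, the cultured form of the primitive endoderm lineage of the early embryo, by the transcription factor Sox17. Sox17-ESC, an overexpression line, was measured without doxycycline (dox, the drug that switches Sox17 on), and after 7, 21, 35 and 49 h and 6 days in 100 ng/ml dox. Sox17-XEN is the XEN-type line made from it, wild-type XEN is a XEN line of its own, and R1 ESC is the wild-type ESC line. The Sox17-XEN label names both 30 days with dox and 30 days without, their order cannot be read from it, and the description has the word dox-indep. The labels give one growth protocol, in which ESC grew on mouse embryonic fibroblasts with serum and LIF, and XEN cells grew in serum and fibroblast-conditioned medium. The description of the day 6 library has the word SORT, with no detail. Every group is 1 library, which leaves each value without a replicate error. The Sox17 libraries share the line name 4J, and the wild-type XEN line is IM8AR.

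Sox17 itself stood at 283, 281, 191, 151 and 71.1 FPKM at 7 h, 21 h, 35 h, 49 h and day 6, against 0.909 FPKM without dox. It had 101 FPKM in Sox17-XEN and 239 FPKM in wild-type XEN, against 0.163 FPKM in R1 ESC. All 8 extraembryonic endoderm markers examined rose and all 7 embryonic stem markers tested fell in the XEN-type lines against the ESC-type lines (limma, adjusted p under 0.05). Of the 7 stem markers compared between day 6 and no dox, 5 were lower at day 6 by at least 2 log2 units (3.86% of all rows). Their median difference was -2.61, and 1 of the 7 was higher. Pou5f1 was still 325 FPKM at day 6, against 723 FPKM without dox. The 20 fibroblast markers examined summed to 2125, 913, 1209, 1638, 2514 and 211 FPKM over the course from no dox through 7 h, 21 h, 35 h and 49 h to day 6. They summed to 933 FPKM in Sox17-XEN and 19.3 FPKM in wild-type XEN, against 848 FPKM in R1 ESC. In wild-type XEN, 4 of the 20 reached 1 FPKM, Col1a1 was 0.490 FPKM and Fap was listed at 0. In all other libraries 17 to 20 of the 20 reached 1 FPKM. The table holds no counts, so absolute depth is unknown.

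Proteins bound for the outside enter the ER through the Sec61 channel, lose their signal peptide, receive sugar chains from oligosaccharyltransferase, fold with the help of chaperones and disulfide isomerases, and leave in COPII vesicles. Chaperones that escape are fetched back by KDEL receptors, and misfolded proteins are pulled out and degraded. When the load exceeds the folding capacity, the sensors Ern1 (IRE1), Atf6 and PERK start the unfolded protein response, in which spliced XBP1, cleaved ATF6 and ATF4 switch on genes of the machinery. XEN cells resemble parietal and visceral endoderm, tissues that secrete basement membrane and plasma proteins in large amounts. FPKM per gene measures neither XBP1 splicing nor ATF6 cleavage.

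The best known DNA elements of this response sit in promoters of the genes themselves, and the sequences below show which of them carry one. The 250 bases before the RefSeq start were searched on both strands (build GRCm38.p6, RefSeq), and 42 of the 53 genes had a promoter in that table. ERSE, the element bound by ATF6 with NF-Y, was searched as CCAAT and CCACG with 9 bases of any kind between. It was found in 9 of 42 genes (21.4%), against 35 of 27025 genes in the whole table (0.13%). The 9 genes are Hspa5, Hsp90b1, Calr, Canx, Creld2, Dnajc3, Pdia6, Syvn1 and Derl3. ERSE-II, searched as ATTGG and CCACG with 1 base of any kind between, was found in Herpud1 alone of the 42, and in 0.037% of all genes. The UPRE, an element known for XBP1, searched as TGACGTGG, was found in Kdelr3 and Sec24d (4.76%, against 0.603% of all genes). Any CCACG, which ERSE and ERSE-II contain and which the UPRE contains when read on its other strand, was found in 69% of the 42 genes, against 31% of all genes. The ATF4 element, searched as TGATGNAA, was found in Herpud1 alone (2.38%, against 3.91% of all genes). A match is a string of letters and not a measured binding site.

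The promoter of Hspa5, the gene of the chaperone BiP, is shown whole because it is the classic example, at chr2:34771840-34772089 on the plus strand, with its ERSE in capitals. All sequences are written 5′ to 3′ along the strand of their gene.
Hspa5: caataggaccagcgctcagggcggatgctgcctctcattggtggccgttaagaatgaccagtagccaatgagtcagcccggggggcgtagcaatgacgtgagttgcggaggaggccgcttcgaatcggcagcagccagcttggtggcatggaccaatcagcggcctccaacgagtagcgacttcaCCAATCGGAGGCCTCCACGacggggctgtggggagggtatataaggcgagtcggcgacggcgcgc
The next stretches show each match in capitals with up to 20 bases on either side. Calr lies at chr8:84847055-84847113 (minus strand), Pdia6 at chr12:17266471-17266529 (plus), Dnajc3 at chr14:118937807-118937865 (plus) and Derl3 at chr10:75893222-75893280 (plus). In Calr and Derl3 the ERSE reads as its reverse complement.
Calr: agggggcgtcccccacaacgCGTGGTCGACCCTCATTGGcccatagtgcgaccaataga
Pdia6: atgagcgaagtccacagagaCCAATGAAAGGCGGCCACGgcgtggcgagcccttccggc
Dnajc3: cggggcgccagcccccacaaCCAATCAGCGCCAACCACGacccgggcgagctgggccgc
Derl3: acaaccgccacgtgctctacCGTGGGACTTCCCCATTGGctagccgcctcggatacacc
Herpud1, with ERSE-II, lies at chr8:94386357-94386407 (plus strand). Kdelr3 at chr15:79516358-79516405 (plus) and Sec24d at chr3:123267450-123267495 (plus) carry the UPRE, as its reverse complement in Kdelr3. These 3 are shown because they were higher in Sox17-XEN than in wild-type XEN, where most ERSE genes were lower.
Herpud1: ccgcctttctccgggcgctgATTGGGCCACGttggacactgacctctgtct
Kdelr3: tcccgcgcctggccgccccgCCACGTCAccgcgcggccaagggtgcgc
Sec24d: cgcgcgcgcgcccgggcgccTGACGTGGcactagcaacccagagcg

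Taken as 1 pool, the 52 genes made up 2.44% of the summed FPKM in Sox17-XEN and 2.99% in wild-type XEN, against 0.736% in Sox17-ESC without dox and 0.634% in R1 ESC. In the dox course the share was 0.726% at 7 h, 0.839% at both 21 h and 35 h, 0.955% by 49 h and 1.82% on day 6. The share was low to 49 h and higher at day 6. In bulk RNA, more cells of a type and more RNA per cell cannot be told apart. The status marking too many fragments leaves 4 rows at day 6, 6 rows in Sox17-XEN and 9 rows in wild-type XEN out of the sum, since their values are missing, and none of them is among the 52 genes.

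**Figure D1:**
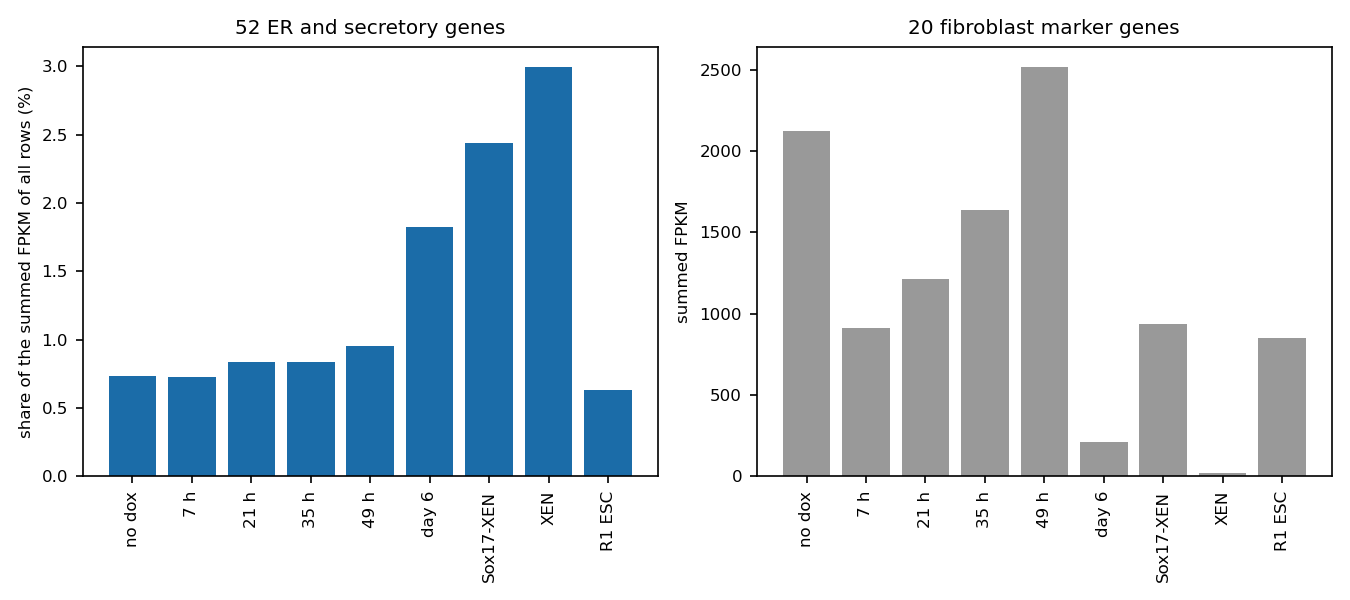
The left panel shows, for each of the 9 libraries, the percent of the summed FPKM of all rows that the 52 genes take, and the right panel shows the summed FPKM of 20 fibroblast marker genes. The gene share is highest in wild-type XEN (2.99%), where the fibroblast sum is lowest (19.3 FPKM), and a link between them was not tested.

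The first question was whether the XEN-type state, reached from the embryo or through Sox17, carries more of this machinery than ESC. Of the 52 genes, 35 rose in the XEN-type lines (Sox17-XEN and wild-type XEN) against the ESC-type lines (Sox17-ESC without dox and R1 ESC) and 0 fell, with a limma adjusted p under 0.05 over 14925 rows. Over all rows tested, 11.6% rose and 9.89% fell. The median estimated difference was 2.15 log2 units for the 52 genes and 0.21 for all rows. In 48 of the 52 genes both XEN-type libraries were above both ESC libraries, against 42.0% of all rows. The exceptions were Derl3, Creb3l1, Sec61b and Sec61g. These libraries are different lines and not replicates of a group, and the number of genes called was 24 with a term for the pair of lines, 19 after rescaling to 1 median, 1 with no filter on low values, 1 when the test asked for more than 1 log2 unit, 21 without wild-type XEN, 28 without Sox17-XEN, and 0 without R1 ESC or without Sox17-ESC without dox, where over all rows 0 were called as well.

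Set as single pairs, 28 of the 52 genes were higher by at least 2 log2 units (4-fold in FPKM + 1) in wild-type XEN than in R1 ESC, and 0 were lower by as much. Over all rows, 8.24% were that much higher and 6.54% that much lower. In the pair of the Sox17 line, 17 genes were higher by 2 log2 units in Sox17-XEN than in Sox17-ESC without dox and 0 were lower, against 5.75% and 5.0% of all rows. In both pairs 13 genes were higher by 2 log2 units, against 3.77% of all rows. No pair of libraries has a test, and the lower confidence bound that the authors give is 0 for 440 of the 468 values of these genes. The median difference of the 52 genes was 2.04 in wild-type XEN against R1 ESC and 1.69 in Sox17-XEN against Sox17-ESC without dox. Relative to the median of all rows, those are 1.83 and 1.52, or 1.66 and 1.40 after rescaling to 1 median, which moved all rows by -0.41 and -0.29. The 2 ESC lines differed from each other by at least 1 log2 unit in 3 genes higher without dox (Sel1l, Creb3l1 and Creb3l2) and in 1 gene lower (Sec61g), against 3.54% and 1.83% of all rows.

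**Figure D2:**
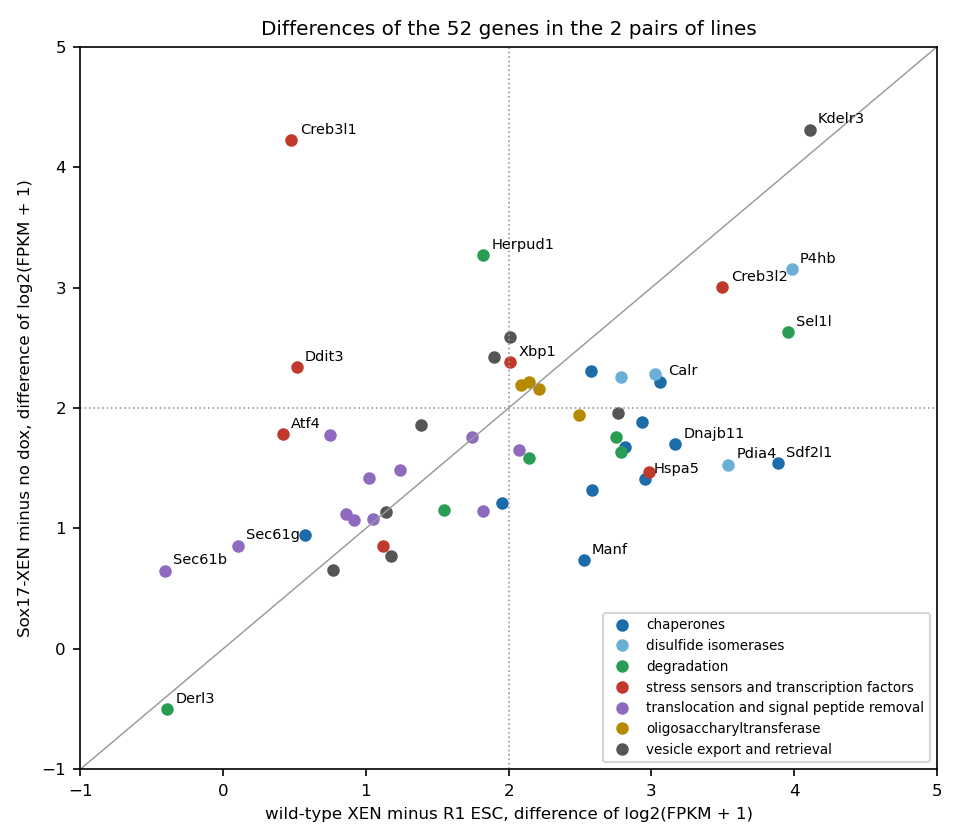
Each point is 1 of the 52 genes, coloured by role. The horizontal axis is the difference of log2(FPKM + 1) in wild-type XEN minus R1 ESC, the vertical axis that in Sox17-XEN minus Sox17-ESC without dox, dotted lines mark 2 log2 units and the diagonal marks equal differences. Chaperones such as Sdf2l1, Manf and Hspa5 lie below the diagonal, and Creb3l1, Herpud1 and Ddit3 above it.

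Of the 11 chaperones, 6 rose. They had the highest summed FPKM of the role groups in every library, while the median per gene was higher for the 4 disulfide isomerases. Hspa5 (ENSMUSG00000026864, mm9 chr2:34627490-34632051) had 579 FPKM in Sox17-XEN and 1517 in wild-type XEN, against 217 in Sox17-ESC without dox and 194 in R1 ESC. The groups did not overlap, yet the XEN-type lines differed so much from each other that the estimate of 2.19 missed the threshold (limma, adjusted p 0.0631). Calr (mm9 chr8:87365749-87370833), which makes the lectin chaperone calreticulin, had 1507 FPKM in Sox17-XEN and 2424 in wild-type XEN, against 323 without dox and 289.8 in R1 ESC. It was the first or second gene of the 52 by level in every library, and it rose by 2.64 log2 units (SE 0.41, limma adjusted p 0.0274). Canx, its membrane-bound relative, had 447 FPKM in Sox17-XEN and 571 in wild-type XEN, against 192 without dox and 147 in R1 ESC, and rose by 1.58.

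Hsp90b1 (GRP94) rose by 2.25 log2 units, and its locus overlaps another row, so its value is less certain. The co-chaperones Dnajb11 and Dnajc3 rose by 2.43 and 2.44, and Hyou1, the large chaperone that serves BiP as exchange factor, rose by 2.41. Sdf2l1, a partner of Dnajb11, had 43.7 FPKM in Sox17-XEN and 170.1 in wild-type XEN, against 14.4 without dox and 10.6 in R1 ESC. Its estimate of 2.71 was the largest of the chaperones but did not pass (limma, adjusted p 0.0681). Manf and Creld2, secreted products of stressed ER, and Dnajb9 did not pass either, with estimates of 1.63, 1.95 and 0.76. Dnajb9 stayed low in every library, between 6.39 FPKM at 21 h and 16.1 FPKM at day 6.

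Disulfide isomerases, which form and shuffle the bonds between cysteines, rose in 4 of 4 cases. P4hb (mm9 chr11:120421612-120434567), which is also the beta subunit of the collagen prolyl hydroxylase, had 1715 FPKM in Sox17-XEN and 2356 in wild-type XEN, against 192 without dox and 148 in R1 ESC. It rose by 3.57 log2 units (SE 0.36, limma adjusted p 0.0171). In R1 ESC and in the early course it stood below Calr, Hsp90b1 and Hspa5, and in Sox17-XEN it was the highest of the 52. Pdia3, Pdia4 and Pdia6 rose by 2.52, 2.54 and 2.65, and each of the 3 shares its locus with another row.

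In ER-associated degradation 6 of 7 genes rose. Sel1l (mm9 chr12:93044483-93087597), the adaptor of the membrane ubiquitin ligase Syvn1 (HRD1), had 106 FPKM in Sox17-XEN and 105 in wild-type XEN, against 16.3 without dox and 5.85 in R1 ESC. The XEN-type lines were alike while the ESC lines differed, and Sel1l rose by 3.29 log2 units (SE 0.50, limma adjusted p 0.0266). Syvn1 rose by 1.87, the mannosidase-like Edem1 by 2.25, and Derl1 and Derl2, membrane proteins of the exit channel, by 2.21 and 1.35. Herpud1 (mm9 chr8:96901821-96919277), which gathers the ligase complex, had 124 FPKM in Sox17-XEN and 48.4 in wild-type XEN, against 11.9 without dox and 13.0 in R1 ESC. It rose by 2.54 log2 units (limma, adjusted p 0.0405), with a difference of 3.27 in Sox17-XEN against Sox17-ESC without dox and 1.82 in wild-type XEN against R1 ESC.

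Derl3 went another way. It had 2.38 FPKM in Sox17-XEN and 3.80 in wild-type XEN, against 3.78 without dox and 5.31 in R1 ESC, with an estimate of -0.45 that did not pass (limma, adjusted p 0.407). Its highest levels were in the dox course, 8.67 FPKM at 21 h and 10.1 FPKM at day 6. Its promoter holds an ERSE like that of Hspa5, shown above.

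Among the sensors and transcription factors 2 of 7 rose, Xbp1 and Creb3l2. Xbp1 (mm9 chr11:5420662-5425896), the factor activated by IRE1 splicing, had 239.7 FPKM in Sox17-XEN and 189 in wild-type XEN, against 45.2 without dox and 46.3 in R1 ESC. It rose by 2.19 log2 units with the smallest error of its group (SE 0.21, limma adjusted p 0.0171). Creb3l2 (mm9 chr6:37277255-37392146), an ER-tethered factor known from cartilage for switching on COPII genes, had 51.8 FPKM in Sox17-XEN and 35.2 in wild-type XEN, against 5.57 without dox and 2.20 in R1 ESC. It rose by 3.25 (SE 0.47, limma adjusted p 0.0244).

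Creb3l1 (OASIS; mm9 chr2:91822485-91864659), the related factor known for collagen secretion in bone, was split between the XEN-type lines. It had 291 FPKM in Sox17-XEN and 9.56 in wild-type XEN, against 14.6 without dox and 6.58 in R1 ESC. Wild-type XEN was below Sox17-ESC without dox, and the estimate of 2.35 had an SE of 1.74 (limma, adjusted p 0.362) and became -0.043 without Sox17-XEN. The fibroblast markers summed to 933 FPKM in Sox17-XEN and 19.3 FPKM in wild-type XEN. In Sox17-ESC without dox they summed to 2125 FPKM with Creb3l1 at 14.6 FPKM. Their part in the Creb3l1 level was not tested.

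Atf6 (estimate 2.23, adjusted p 0.0531), Ern1 (0.99, 0.131), Ddit3 (1.43, 0.112) and Atf4 (1.10, 0.118) did not pass in the limma fit. Ern1 was low in these lines, with 6.52 FPKM in Sox17-XEN and 5.04 in wild-type XEN, against 3.15 without dox and 1.77 in R1 ESC. Its highest level was 12.9 FPKM, at day 6. Ddit3 (CHOP), the death-linked factor of the ATF4 arm, had 53.1 FPKM in Sox17-XEN and 29.4 in wild-type XEN, against 9.66 without dox and 20.3 in R1 ESC. Atf4 had 289.5 and 188 FPKM in Sox17-XEN and wild-type XEN, against 83.4 and 141 FPKM in the ESC lines without dox and R1. ATF4 is regulated mostly through its translation, which RNA levels do not show.

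Translocation genes moved less, 7 of 11 rising, with a median estimate of 1.22 log2 units. Sec61a1, the pore of the channel, had 206 FPKM in Sox17-XEN and 254 in wild-type XEN, against 64.6 without dox and 59.5 in R1 ESC, and rose by 1.86 (SE 0.21, limma adjusted p 0.0183). The small subunits of the same channel did not follow. Sec61b had 136 FPKM in Sox17-XEN and 129 in wild-type XEN, against 86.3 without dox and 172 in R1 ESC, its highest level. Sec61g had 126 and 163 FPKM in Sox17-XEN and wild-type XEN, against 68.8 without dox and 152 in R1 ESC. Their estimates of 0.12 and 0.48 did not pass (limma, adjusted p 0.841 and 0.47) and turned to -0.37 and -0.013 after rescaling to 1 median.

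The channel partner Sec63 rose by 0.99. Of the TRAP complex beside the channel, Ssr1 and Ssr3 rose by 1.75 and 1.36, while Ssr2 and Ssr4 had estimates of 1.06 and 1.26 with limma adjusted p of 0.0583 and 0.0587. All 3 signal peptidase genes rose, Spcs1 by 1.22, Spcs2 by 0.996 and Spcs3 by 1.48. The 4 oligosaccharyltransferase genes rose by nearly the same amount, Stt3a, the catalytic subunit, by 2.18, Rpn1 by 2.22, Rpn2 by 2.14 and Ddost by 2.18. Ddost had 359 FPKM in Sox17-XEN and 339 in wild-type XEN, against 79.8 without dox and 72.4 in R1 ESC (SE 0.20, limma adjusted p 0.0171).

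In vesicle export and retrieval 6 of 8 genes rose. Kdelr3 (mm9 chr15:79346838-79377171), a receptor that returns KDEL-bearing chaperones from the Golgi, had 408 FPKM in Sox17-XEN and 243 in wild-type XEN, against 19.6 without dox and 13.1 in R1 ESC. Its rise of 4.21 log2 units was the largest of the 52 (SE 0.37, limma adjusted p 0.0171), and its locus overlaps another row. Kdelr2 rose by 2.30, the cargo receptor Lman1 by 2.36, its partner Mcfd2 by 0.97, the vesicle protein Tmed2 by 1.62 and the COPII coat gene Sec13 by 1.14. Sec24d, a cargo-binding coat subunit, and Sec31a, of the outer coat, did not pass, with estimates of 2.16 and 0.71 and limma adjusted p of 0.0592 and 0.198. Sec24d had 103 FPKM in Sox17-XEN and 43.1 in wild-type XEN, against 18.3 without dox and 10.8 in R1 ESC.

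The other genes of the pathway, taken from lists chosen by function, behaved in the following way. Of 32 further folding genes tested 23 rose, of 17 further degradation genes 9, of 19 further translocation and glycosylation genes 10 and of 39 further export genes 26, and 0 of any of these fell (limma, adjusted p under 0.05). Over all rows tested, 11.6% rose and 9.89% fell in the same fit. Serpinh1, the collagen chaperone HSP47, had 2311 FPKM in wild-type XEN, against 86.0 FPKM in R1 ESC, and rose by 4.92, more than any of the 52 genes. The isomerase Pdia5 rose by 3.72, and Sep15 and Cnpy2 at the other end had estimates of 0.61 and 1.02 that did not pass. Edem2 and Erlec1 rose by 2.48 and 2.15, while Rnf5 had an estimate of 0.33 that did not pass, with differences of 0.62 in Sox17-XEN minus Sox17-ESC without dox and 0.04 in wild-type XEN minus R1 ESC. Ube2j2, whose value without dox is missing, differed by 0.11 in wild-type XEN minus R1 ESC. Tram2 and Magt1 rose by 3.19 and 2.44, against estimates of 0.22 and 0.26 for the signal recognition particle genes Srp19 and Srp14, which did not pass. Tmed10 and Tmed3 rose by 2.70 and 2.54, and Tmed5 and Sec16b had estimates of -0.47 and -0.54 that did not pass. Sec16b was near the floor, with 0.019 FPKM in wild-type XEN and 0.398 in R1 ESC, where Tmed5 had 26.8 and 40.4 FPKM.

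For 18 further stress sensors and ATF4-arm genes the median estimate was 0.74. In the limma fit 0 of them fell and 3 rose, a share not far above the 11.6% of all rows. The 3 were Eif2ak3 (PERK; 1.51), Mbtps1, the protease that cleaves ATF6 (1.79), and Atf3 (3.93). The amino acid genes Asns and Psat1, targets of ATF4, had estimates of 0.44 and 0.19 and did not pass. Nupr1 and Cebpb, lowest of the list in wild-type XEN against R1 ESC (-3.84 and -1.40), did not pass either. Nupr1 had 27.1 FPKM in Sox17-XEN and 1.67 FPKM in wild-type XEN, against 19.7 without dox and 37.1 in R1 ESC.

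**Figure D3:**
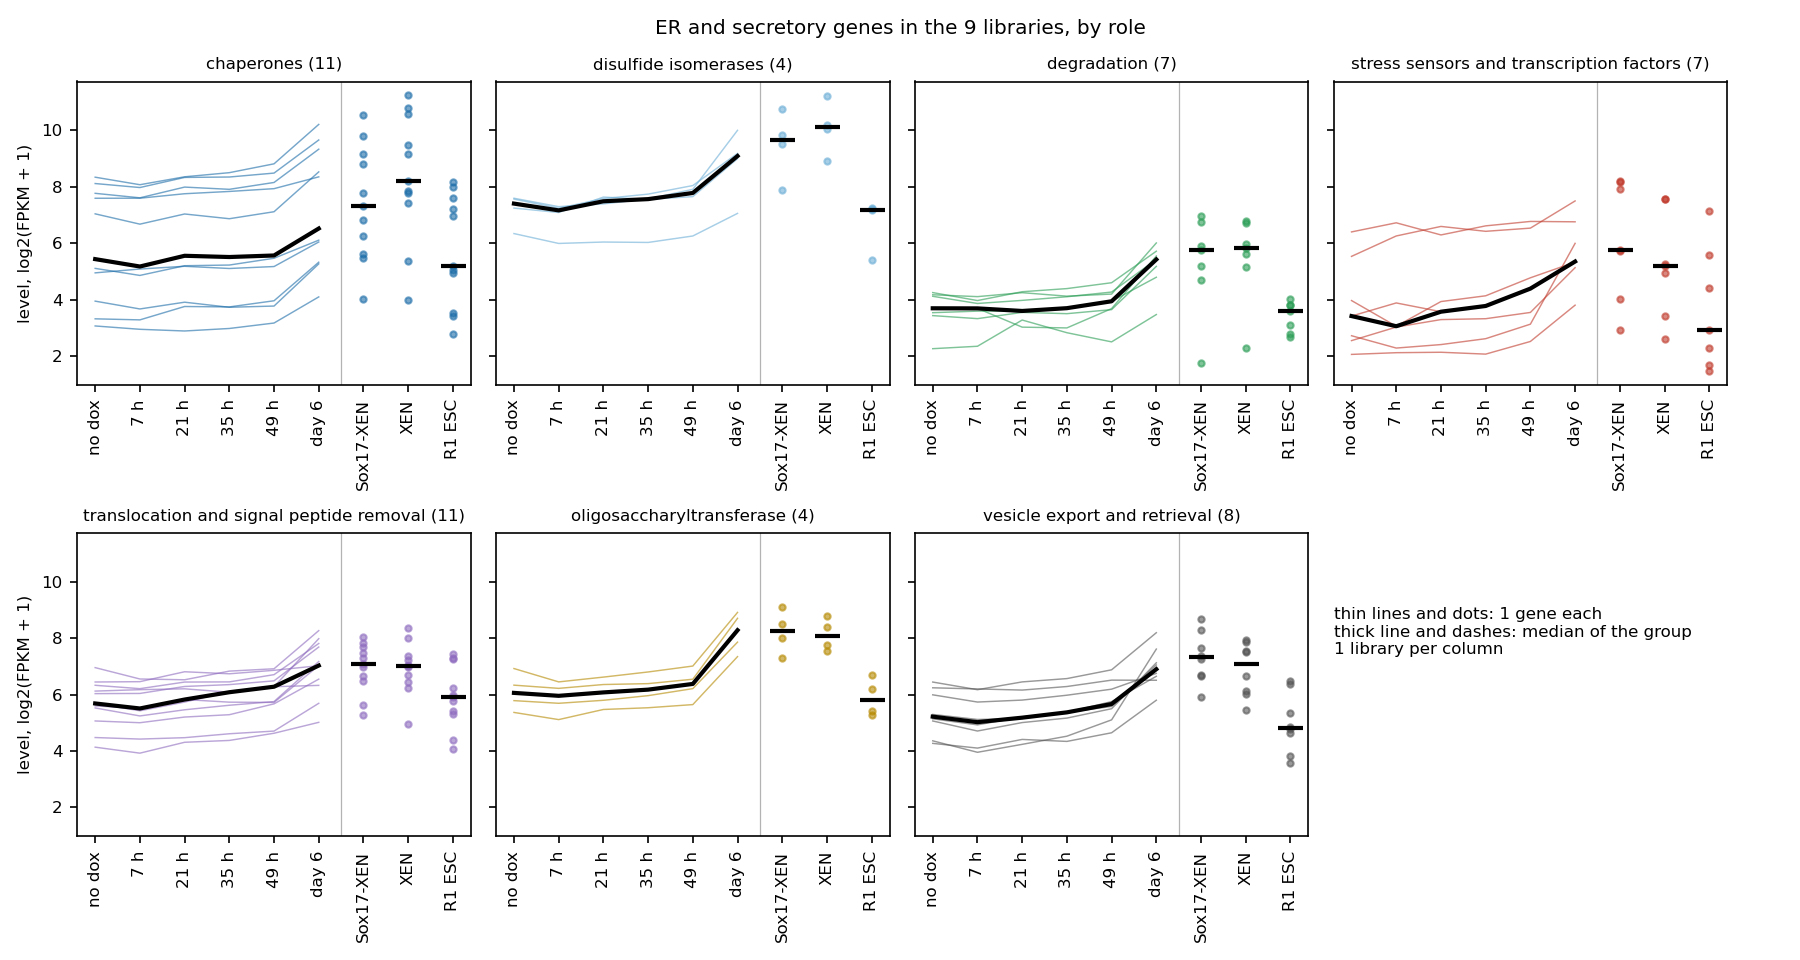
Levels as log2(FPKM + 1) of the 52 genes in 7 role groups, 1 library per column, with lines over the dox course from no dox to day 6 and dots for Sox17-XEN, wild-type XEN (XEN) and R1 ESC. Thin lines and dots are genes and thick marks are medians. In every group the median is higher at day 6 than at 49 h.

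The second question was when, after Sox17 was switched on, the machinery moved. At 7, 21, 35 and 49 h, 0 of the 52 genes were higher by 2 log2 units than without dox, where 0.446%, 0.746%, 0.614% and 0.706% of all rows were. At day 6, 9 genes were that much higher and 0 that much lower, against 5.14% and 3.86% of all rows: Dnajc3, P4hb, Atf6, Creb3l2, Ssr4, Stt3a, Ddost, Kdelr2 and Kdelr3. At 1 log2 unit, day 6 had 44 of 52 genes higher, against 17.6% of all rows. The median of the 52 genes against no dox was -0.16, 0.055, 0.13, 0.37 and 1.54 over 7 h, 21 h, 35 h, 49 h and day 6, and over all rows it was -0.096, -0.057, -0.014, 0.030 and 0.097. Day 6 was above every earlier library of the course in 50 of 52 genes, against 45.8% of all rows, and 29 genes increased at each step after 7 h, against 12.1%.

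Most of the move lay between 49 h and day 6, an interval with no library in between. Day 6 is also the only library whose description has the word SORT. The fibroblast markers summed to 2514 FPKM at 49 h and 211 FPKM at day 6. Time in dox, sorting and fibroblast RNA cannot be told apart in this step. In that step 4 genes were higher by 2 log2 units (P4hb, Creb3l2, Ddost and Kdelr3; 3.74% of all rows) and 32 by 1 log2 unit (14.3% of all rows). Kdelr3 ran at 19.6, 14.5, 17.9, 22.1, 33.4 and 195 FPKM at no dox, 7 h, 21 h, 35 h, 49 h and day 6. P4hb ran at 192, 156, 167, 189, 239 and 1024 FPKM over the same 6 libraries. Both were lowest at 7 h, back near their starting level at 35 h and highest of the course at day 6. Creb3l2 had 5.57, 3.86, 4.29, 5.11, 7.73 and 62.7 FPKM in that order, also lowest at 7 h, and its day 6 level was the highest of all 9 libraries. Sec13 (74.7, 72.6, 70.6, 77.2, 90.4 and 90.2 FPKM) and Atf4 (83.4, 105, 77.3, 96.9, 108 and 107 FPKM) were the 2 genes for which day 6 did not exceed 49 h.

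Xbp1 stood higher from 7 h on. It had 45.2, 75.4, 95.5, 84.6, 91.6 and 179.6 FPKM at no dox, 7 h, 21 h, 35 h, 49 h and day 6, against 46.3 FPKM in R1 ESC. Its difference of 0.72 at 7 h was the largest of the 52 genes there, and it stayed near that level to 49 h. Atf6 followed with 4.83, 7.13, 8.77, 8.99, 10.7 and 34.0 FPKM in the same order. At 21 h, 2 genes were higher by 1 log2 unit, Xbp1 and Derl3 (3.12% of all rows). At 49 h only Xbp1 was, by 1.002 (3.26% of all rows), with Atf6 (0.999) and Ddit3 (0.97) just short of it. Counts at both times were near or below the share of all rows. Ddit3 had 9.66, 13.7, 10.9, 12.7, 19.9 and 39.8 FPKM in the same order, above its starting level at every time. In R1 ESC it had 20.3 FPKM, above all its levels from no dox to 49 h. By contrast Hspa5 ran at 217, 194, 253, 239, 283 and 643 FPKM, with no early step. Herpud1 ran at 11.9, 11.9, 7.12, 6.97, 11.8 and 45.7 FPKM, lower at 21 h and 35 h than at its start.

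At 7 h, 40 of the 52 genes were below no dox by any amount, a share near the 66.6% of all rows. After rescaling to 1 median, the median against no dox was -0.021 for the 52 genes and 0.0040 for all rows. From 7 h to 49 h 51 genes were higher, against 64.2% of all rows. The fibroblast markers summed to 913 FPKM at 7 h and 2514 FPKM at 49 h, against 2125 FPKM without dox, so their sum moved the same way in both steps, and their part in these differences was not tested. At day 6, the library whose description has the word SORT, they summed to 211 FPKM, the lowest of the course. Their part in the day 6 levels was not tested either.

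A slope along the order of the 6 libraries of the course called 0 of the 52 genes and 0% of 14933 rows in either direction (limma, adjusted p under 0.05). A jump confined to day 6 departs from a straight line and counts as error in this fit. The absence of calls therefore does not show that the genes were steady. At an unadjusted p under 0.05 it had 39 of the 52 genes upward and 0 downward, with 2442 rows upward and 1305 downward in all. The smallest p values of the 52 belonged to Xbp1 (slope 0.30 per step, limma adjusted p 0.1302), Sec63 and Canx. With time in hours in place of rank, where day 6 carries nearly all the weight, 48 of the 52 genes rose among 4307 rows, and with Sox17-XEN as a last step 33 rose among 1282 rows (limma).

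The third question was whether the XEN-type line made through Sox17 carries the same machinery as wild-type XEN. Among the 52 genes the balance differed by role. Most chaperones and all 4 isomerases stood lower in Sox17-XEN, while most sensors and factors and 5 of 8 export genes stood higher. Wild-type XEN was above Sox17-XEN in 9 of 11 chaperones and 4 of 4 isomerases, but in 1 of 7 sensors and factors, 1 of 4 oligosaccharyltransferase genes and 3 of 8 export genes. Over the 52 genes it was above in 28, against 46.4% of all rows. The median difference, Sox17-XEN minus wild-type XEN, was -1.002 for chaperones, -0.56 for isomerases, -0.48 for degradation, 0.026 for translocation, 0.20 for oligosaccharyltransferase, 0.49 for export and 0.55 for sensors and factors. There is 1 library of each line, so these differences have no test. Rescaling to 1 median left the medians at -1.065, -0.62, -0.49, -0.036, 0.14, 0.42 and 0.48. The wider lists showed little of the split for folding and export. Further folding genes had a median of -0.11 (13 above 0, 19 below) and further export genes 0.045 (22 above, 17 below), against 0.016 over all rows. Further stress sensors and ATF4-arm genes had a median of 0.57 (14 above, 4 below).

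Differences of at least 1 log2 unit were lower in Sox17-XEN in 8 genes, against 6.76% of all rows, and 6 of these are chaperones. Sdf2l1 differed by -1.93 log2 units, with 43.7 FPKM in Sox17-XEN and 170.1 in wild-type XEN. Manf had 218 and 712 FPKM, Creld2 76.0 and 219, Dnajb11 111 and 297, Hspa5 579 and 1517, and Hsp90b1 887 and 1777 FPKM in Sox17-XEN and wild-type XEN. The other two were Pdia4 (233 and 487 FPKM) and Atf6 (15.2 and 37.7 FPKM). In 3 of these 8 genes, Hspa5, Manf and Atf6, Sox17-XEN was also below day 6 (643, 368 and 34.0 FPKM). Summed over the 11 chaperones, Sox17-XEN had 4090 FPKM and wild-type XEN 7975 FPKM, while day 6 had 3644 FPKM.

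In the other direction 4 of the 52 genes were higher by at least 1 log2 unit in Sox17-XEN, a share below the 9.09% of all rows. Creb3l1 was the only one past 2 log2 units, at 4.79, where 2.73% of all rows were, so this count was no more than the share of all rows. Herpud1 differed by 1.33, Sec24d by 1.24 and Kdelr2 by 1.01. Kdelr2 had 201 FPKM in Sox17-XEN and 99.5 in wild-type XEN, and Kdelr3 408 and 243 FPKM. Against day 6, Creb3l1 was again the only gene of the 52 higher by 2 log2 units in Sox17-XEN, at 2.86 (2.96% of all rows). The 20 fibroblast markers were higher in Sox17-XEN than in wild-type XEN, with Col1a1 at 252 and 0.490 FPKM, and their part in these differences was not tested.

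**Figure D4:**
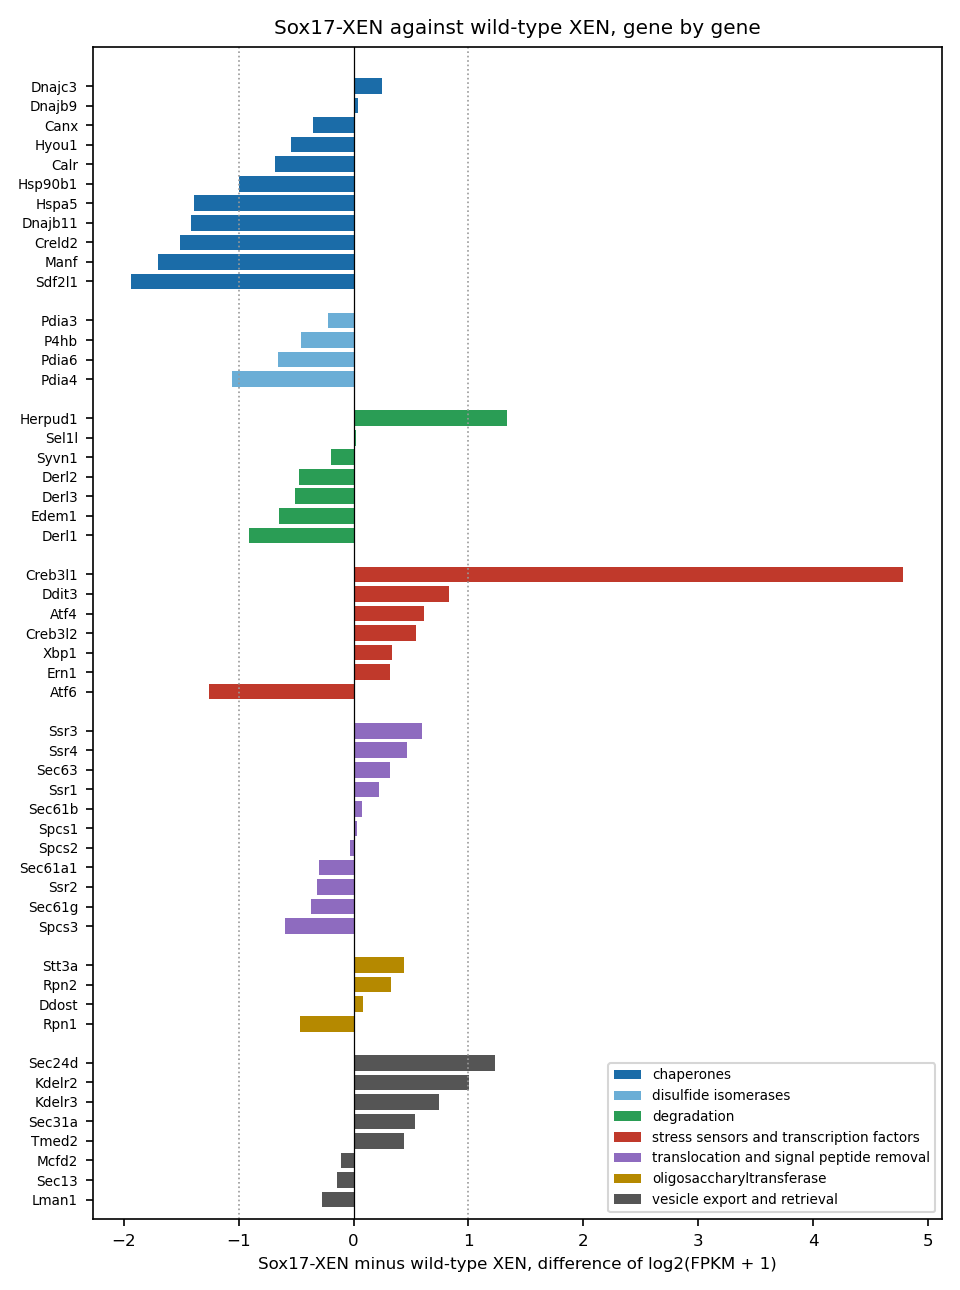
Horizontal bars give Sox17-XEN minus wild-type XEN as the difference of log2(FPKM + 1) for each of the 52 genes, grouped and coloured by role, with dotted lines at 1 log2 unit either way. Chaperone and isomerase bars point mostly to the left (lower in Sox17-XEN), and the longest bar is Creb3l1 at 4.79.

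Sorted by the promoter elements shown above, 8 of the 9 ERSE genes were lower in Sox17-XEN than in wild-type XEN, with a median difference of -0.66, the exception being Dnajc3 at 0.25. Of the 29 genes with a promoter and none of the 3 longer elements, 12 were lower and 17 higher, with a median of 0.035. Of the 11 genes with no promoter sequence to search, 8 were lower and 3 higher, with a median of -0.32. Both UPRE genes were higher in Sox17-XEN, Kdelr3 by 0.75 and Sec24d by 1.24, and so was Herpud1. In wild-type XEN against R1 ESC the median was 2.585 for the ERSE genes, 1.55 for those with no match and 2.07 for those with no promoter sequence. In Sox17-XEN against Sox17-ESC without dox the order was not kept, at 1.59 for the ERSE genes, 1.70 with no match and 1.655 with no promoter sequence. Sdf2l1, Dnajb11 and Pdia4 had some of the most negative differences of Sox17-XEN minus wild-type XEN (-1.93, -1.41 and -1.06). None of the 3 longer elements is in their windows, and Sdf2l1 has a CCACG. The elements and the roles overlap, since 6 of the 9 ERSE genes are chaperones, and they cannot be told apart here.

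**Figure D5:**
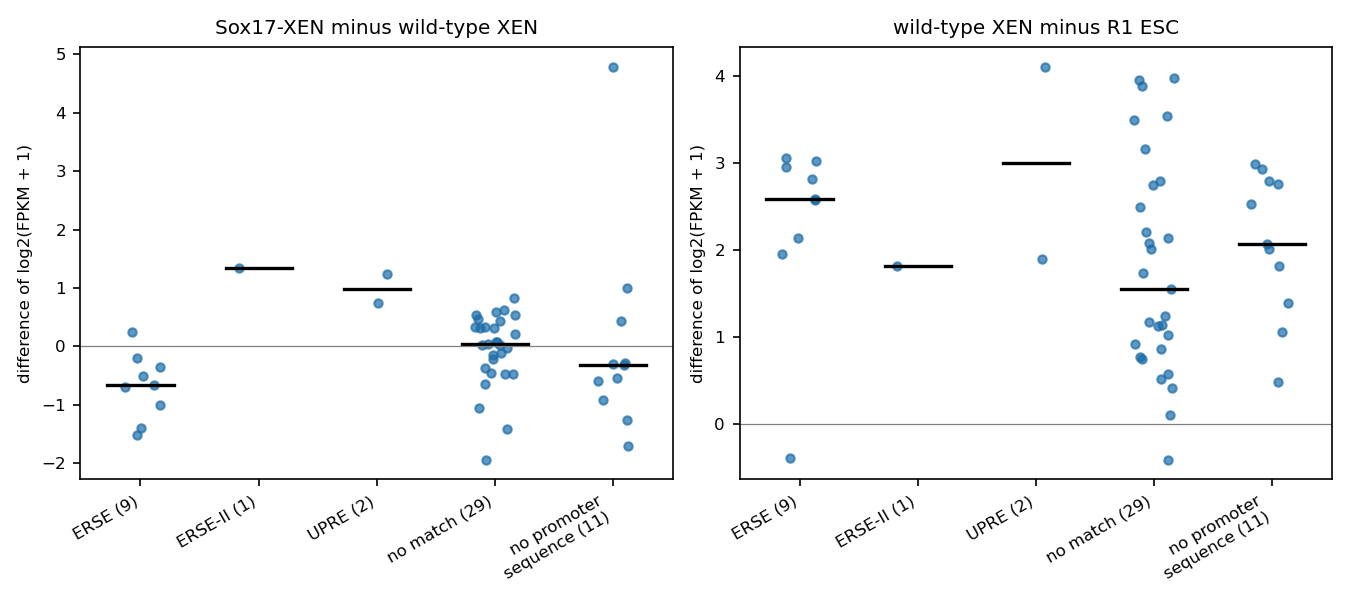
Points are genes grouped by the element found in the 250 bases before their start, with the number of genes in parentheses and a bar at the median. The left panel gives the difference of log2(FPKM + 1) in Sox17-XEN minus wild-type XEN and the right panel that in wild-type XEN minus R1 ESC. ERSE genes lie mostly below 0 on the left (8 of 9).

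The library with the highest level differed by gene. Wild-type XEN held the highest level of 24 genes, Sox17-XEN of 16, day 6 of 11 and R1 ESC of 1 (Sec61b). Day 6 exceeded wild-type XEN in 22 of the 52 genes, against 48.0% of all rows, and Sox17-XEN in 18, against 45.7% of all rows. It exceeded wild-type XEN in 1 of 11 chaperones and 0 of 4 isomerases, but in 7 of 11 translocation genes, 3 of 4 oligosaccharyltransferase genes and 5 of 8 export genes. Ddost had 417 FPKM at day 6, 359 in Sox17-XEN and 339 in wild-type XEN. Ssr4 had 252 FPKM at day 6, 175 in Sox17-XEN and 127 in wild-type XEN. Calr in turn had 1184 FPKM at day 6, 1507 in Sox17-XEN and 2424 in wild-type XEN.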

How the data were processed

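RNA sequencing of 9 mouse libraries, 1 per group, was used as deposited: the authors gave FPKM per gene with confidence bounds and a status. Cuffdiff, Cufflinks 2.1.2, TopHat2 2.0.11 and the build mm9 are named in the submitters' processing notes. The use of strand is not given in the sources used here. Values whose status was not OK were set to missing, which touched none of the 52 genes, and of rows sharing a symbol the one with the highest mean was used. Of the 52 genes, 15 share their listed locus with another row: Hsp90b1, Manf, Pdia3, Pdia4, Pdia6, Syvn1, Herpud1, Derl2, Atf6, Ddit3, Sec63, Spcs1, Rpn2, Sec24d and Kdelr3.

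The 53 genes, the other lists and the tests were chosen with earlier results of these data known. All 53 genes may be named, and of each other list the 2 genes with the highest and the 2 with the lowest difference of wild-type XEN against R1 ESC. Eif2ak3, Asns, Psat1, Chac1 and Trib3 were named outside that rule, after their values were seen.

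Values were used as log2(FPKM + 1), a scale that understates changes of low genes, for rows with a maximum of at least 1 FPKM. Pairs of single libraries were compared without a test, and a difference of at least 2 log2 units was counted as higher or lower. limma 3.58.1 (R 4.3.3, moderated with a mean trend, two-sided, Benjamini-Hochberg over all rows, threshold 0.05) compared Sox17-XEN and wild-type XEN with Sox17-ESC without dox and R1 ESC, and a second fit took the slope along the ordered times of the dox course (steps 1 to 6). In the comparison of lines its p-values measure the spread between these libraries. In the slope, with 1 library per time, they measure the departure from a straight line over the steps. Simulated data had independent noise with an SD of 0.311, taken from the difference between the ESC lines. On them the comparison of lines recovered 92 of 100 genes changed by 1.5 log2 units and all 100 changed by 3. The slope recovered 75 of 100 at 0.3 and all 100 at 0.6. Unchanged genes called numbered 13 in the comparison of lines and 11 in the slope. The simulated slopes were straight lines, so their recovery does not carry over to genes that move mainly in a late step. The XEN-type lines differed more than the ESC lines that gave the noise. Rows higher and lower by 1 log2 unit were 9.09% and 6.76% in Sox17-XEN against wild-type XEN. They were 3.54% and 1.83% in Sox17-ESC without dox against R1 ESC. The recovery in the simulated comparison of lines therefore does not carry over to the real one either. Depth relative to R1 ESC, from the commonest ratio of low values, was 61.7% at day 6 to 127% at 7 h, a ratio that fits just 7.32% to 12.8% of them. No counts are given, so no counting interval is stated. Alternatives were other pseudocounts, filters, scalings and thresholds, and each library left out. Promoters (RefSeq, GRCm38.p6) were searched as letters, and coordinates of genes are those of the files in mm9, 1-based. A planned search of protein ends for retrieval signals was not run. Other steps used Python 3.11.15, numpy 2.4.6, pandas 2.3.3 and matplotlib 3.10.9.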

Additional observations from a re-analysis of the deposited data

Results flagged for a closer look

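Sec61b, a small subunit of the translocation channel, moved in opposite directions in the 2 pairs of lines. It was lower in wild-type XEN than in R1 ESC, with a difference of -0.41 log2 units, and higher in Sox17-XEN than in Sox17-ESC without dox, with a difference of 0.65. The difference between the pairs was not tested, since each group has 1 library.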

How the results depend on the processing

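The count of the 52 genes that rose in the XEN-type lines (35 in limma) was 30 to 36 with other pseudocounts, a stronger filter, no mean trend or day 6 added. It was 24 (1079 of all rows higher) with a term for the pair of lines (Sox17-XEN with Sox17-ESC without dox, wild-type XEN with R1 ESC), chosen after seeing the data, which leaves 1 residual degree of freedom. It was 19 after rescaling to 1 median, 1 with no filter, 1 with a minimum difference of 1 log2 unit in the test (treat), and 22 with a difference of at least 2 log2 units asked beside the adjusted p, which was chosen after seeing the data. With a library left out in turn it ran from 0 to 28. Over all rows, 1729 higher and 1476 lower became 886 higher after rescaling, 308 and 645 with no filter, 148 and 167 with treat, 724 and 581 with 2 log2 units asked, 866 lower with the filter at 5 FPKM, and 0 to 1305 higher and 0 to 1157 lower with a library left out. Slopes over the dox course called 0 genes and 0 rows except with time in hours (48 genes, 4307 rows higher and 2033 lower) and with Sox17-XEN added (33 genes, 1282 and 727 rows). The cause was not tested.

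For the pairs, asking for confidence intervals that do not overlap left 0 genes in every pair, since the authors' lower bounds are mostly 0. In Sox17-XEN against Sox17-ESC without dox, 17 became 8 after rescaling and 44 at 1 log2 unit. At day 6 against no dox, 9 became 5 with a pseudocount of 5, 44 at 1 log2 unit and 18 with R1 ESC as reference, chosen after seeing the data. For day 6 against 49 h, 4 became 2 after rescaling and 32 at 1 log2 unit. At 1 log2 unit, 2 were higher at 21 h, 1 at 49 h, 3 higher and 1 lower without dox against R1 ESC, 4 higher and 8 lower in Sox17-XEN against wild-type XEN, and 5 higher and 2 lower in Sox17-XEN against day 6, where a pseudocount of 0.1 also made 1 lower.

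Estimates that turned sign did not pass either way. In the comparison of lines these were Sec61b (-0.37 rescaled), Sec61g (-0.013 rescaled) and Derl3 (0.039 with day 6 added), and, over the fits that leave out 1 library, Sec61b (-0.37 to 0.61), Sec61g (-0.084 to 1.04) and Creb3l1 (-0.043 to 4.74). In the slopes they were Sec61g (-0.018 rescaled), Derl3 (-0.000944 with Sox17-XEN added), and, over the fits that leave out 1 library, with the low end without day 6, Sdf2l1 (-0.029 to 0.31), Pdia4 (-0.014 to 0.23) and Herpud1 (-0.072 to 0.44).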

Other observations

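Some further genes of the ATF4 arm also differed between the XEN-type lines. Chac1, which degrades glutathione, had 45.3 FPKM in Sox17-XEN and 6.05 FPKM in wild-type XEN, against 5.82 FPKM in Sox17-ESC without dox and 12.8 FPKM in R1 ESC. Trib3, a pseudokinase induced through ATF4 and CHOP, had 23.9 FPKM in Sox17-XEN and 7.32 FPKM in wild-type XEN, against 8.30 FPKM without dox and 16.7 FPKM in R1 ESC. Both were highest in Sox17-XEN of these 4 lines, as were Atf4 and Ddit3. Chac1 and Trib3 did not pass in the comparison of lines (limma, adjusted p 0.555 and 0.876), and they were picked after their values were seen. Of their list of 18 genes, 4 were higher by at least 1 log2 unit in Sox17-XEN than in wild-type XEN and 1 was lower. Over all rows those shares were 9.09% and 6.76%.

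Asns, the asparagine synthetase gene, ran at 77.3, 149, 159, 200.5, 171 and 55.9 FPKM at no dox, 7 h, 21 h, 35 h, 49 h and day 6. It was high in the early course and low at day 6, where most of the 52 genes were at their highest of the course. Asns too was picked after its values were seen. Its list of 18 stress sensors and ATF4-arm genes did not share the early rise. The list median against no dox was -0.098 at 7 h (7 above 0, 11 below), -0.13 at 35 h (8 above, 10 below) and -0.19 at day 6 (9 above, 9 below).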
